A study of Bos taurus with 4 samples.

Results

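Respiratory complexes II to V, with cytochrome c, were followed in buffalo sperm RNA as the genes named SDHA, SDHB, SDHC, SDHD, CYC1, CYCS or COX10 to COX19 on the array, and those whose name begins with UQCR, COX4 to COX8 or ATP5. This choice by name alone gave 55 of the 32429 gene names on the array, read by 140 of its 51282 probes. Complex II held 4 genes, complex III 9, complex IV 24 and complex V 17, and CYCS, the electron carrier between complexes III and IV, stood alone. Within complex IV the name rule also took 7 assembly factors and COX4NB, and within complex V it took ATP5S and ATP5SL. COX4NB, ATP5S and ATP5SL now carry the symbols EMC8, DMAC2L and DMAC2 and are not subunits of these enzymes.

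The samples were spermatozoa of Murrah buffalo breeding bulls, selected on Percoll, a density medium. High-fertile and low-fertile bulls were ranked by conception rate. There were 2 pools of each class, each made of equal amounts of RNA from 2 bulls, so the spread between pools understates that between bulls. The bulls' ages were not given in the sources used here, and the study used no genetic change or treatment. Each pool was labelled with Cy3 from an oligo-dT primer and read on 1 array of cattle probes, although the animals were buffaloes. All 4 arrays were on a single slide, with 1 row for each fertility class, so row and fertility cannot be told apart.

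These enzymes form the later part of oxidative phosphorylation in the inner mitochondrial membrane. Complex II (succinate dehydrogenase) passes electrons from succinate to ubiquinone, complex III (the cytochrome bc1 complex) moves them to cytochrome c, and complex IV (cytochrome c oxidase) hands them to oxygen. Complex V (ATP synthase) uses the resulting proton gradient to make ATP. In spermatozoa the mitochondria are wrapped around the midpiece of the tail, and several subunits have testis or tissue isoforms. All members analysed here are encoded in the nucleus.

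Levels are given as the log2 signal of a probe minus the 75th percentile of its array, and a change is the low-fertile mean minus the high-fertile mean on this log2 scale. Each gene was read from its tested probe with the highest mean level. A probe was tested when both pools of a class carried the scanner software's mark for a signal well above background. The call was an adjusted p under 0.05 in limma, with Benjamini-Hochberg adjustment over all 21033 tested probes. The share of probes well above background was 45.4% and 45.3% on the high-fertile arrays and 50% and 25.4% on the low-fertile arrays. Of 23 sperm marker genes 7 were above background on no array, among them AKAP4 and SMCP, while ACR and ODF1 were above it on all 4. The summed linear level of the 14 leukocyte markers was 730 and 709 in the high-fertile and 846 and 941 in the low-fertile pools, and PTPRC rose by 0.78 while CD3D fell by 1.05 (limma adjusted p = 0.016 and 0.0102). CD3E was above background on no array. Of the other markers, HBB of red cells rose by 1.24 and the sperm gene PRM1 by 0.67, and the sperm gene ACRV1 fell by 0.69 (limma adjusted p = 0.0118, 0.0231 and 0.0306). HBB was tested through the low-fertile pools alone and ACRV1 through the high-fertile pools alone. The summed level of the 8 epithelial markers ran from 24.1 to 28.9 and that of the 6 red cell markers from 8.36 to 12.1 over the 4 arrays. For the 23 sperm markers it was 31.4 and 26.9 in the high-fertile and 31.4 and 28.4 in the low-fertile pools, below the leukocyte sum. The sums run over different probes and do not give shares of cell types. The part of other cells in the results below was not tested.

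Of the 55 genes, 43 were tested. In low-fertile sperm 15 of them were lower, 1 was higher and 27 were not called by limma. Over all 16685 tested gene names, 16.6% were called lower and 9.53% higher. The median change of the 43 members was -0.25, against 0.01 over all tested gene names. The lower calls comprised SDHC in complex II, UQCRH in complex III, 5 subunits of complex IV with COX11, COX14 and COX4NB, and 5 subunits of complex V. With no filter on dim probes, and with the methods' t-test after adjustment, 0 members were lower and 0 higher (15 and 1, and 13 and 2, at an unadjusted p under 0.05). With spike-in normalization 23 were lower and 0 higher, but the median change over all genes was then -0.38, so the whole scale had shifted down.

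Each tested member outside the 32 well above background on all 4 arrays was tested through the high-fertile pools alone. This favoured a lower reading without forcing one, as UQCRFS1 changed by -0.06 and COX4I2 by 0.06. Among the 15 lower calls, COX5A, COX11 and ATP5G3 were marked in neither low-fertile pool, and ATP5A1 only in low-fertile pool 1. Among the 32 members well above background on all 4 arrays, 11 were lower and 1 was higher, and the median change was -0.20. The corresponding shares over 10590 gene names were 9.32% lower and 13.2% higher, with a median of 0.15. In the same class complex IV had 6 of 13 genes lower with a median of -0.75, complex V 3 of 9 with -0.37, complex III 1 of 8 with -0.05 and complex II 1 of 2 with -0.26. The complex IV median was the value of COX4NB, which is not a subunit. The 13 genes also held COX4I1 at -2.45, read from a bright patch on 1 array (-0.08 with such spots left out). For the 10 oxidase subunits in this class, COX4I1 included, the median was -0.58.

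**Figure D1:**
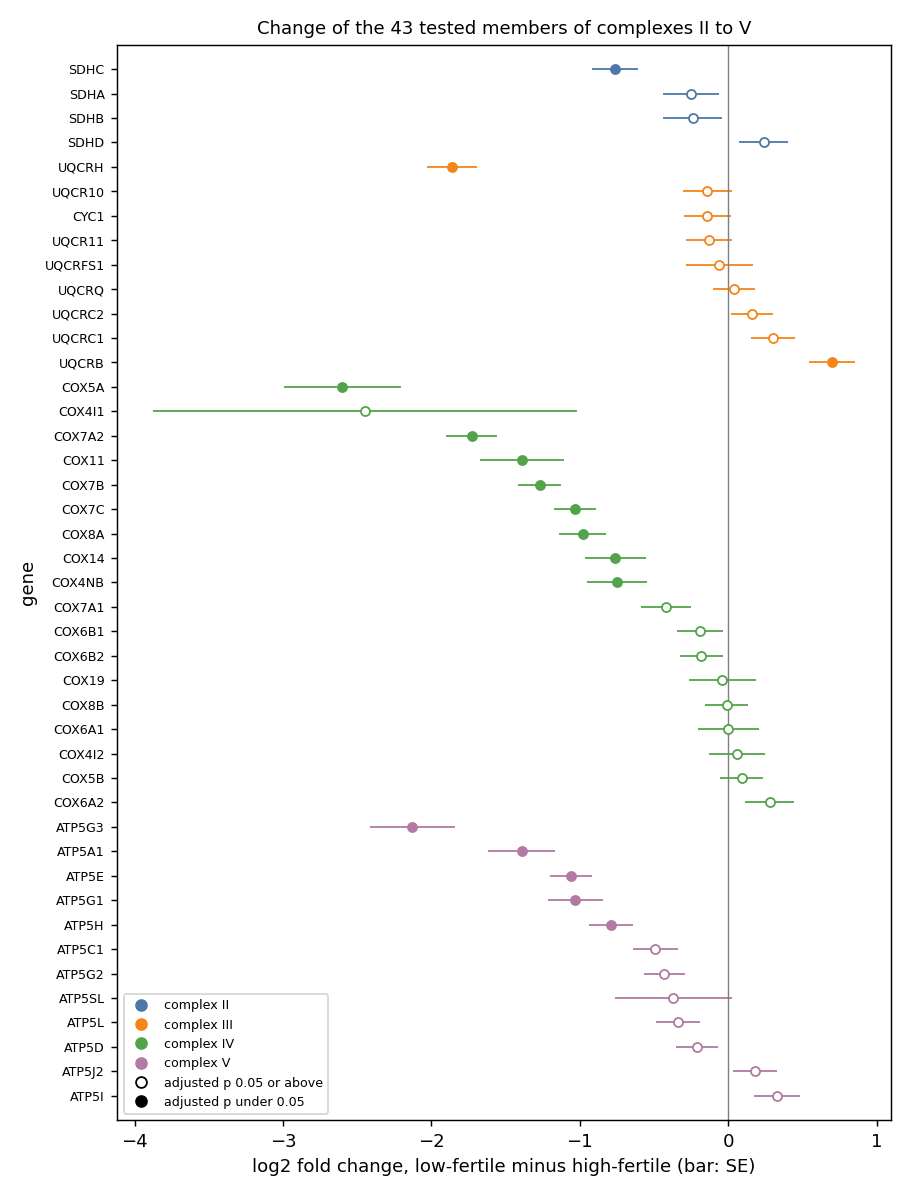
The log2 change from high-fertile to low-fertile sperm is plotted on the horizontal axis for the 43 tested genes, coloured by complex, with the SE from limma as bars and filled points for adjusted p under 0.05. The filled points lie left of 0 except UQCRB at 0.70, and COX4I1 has the widest bar, with an SE of 1.43.

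The changes moved with the GC content of the probes. The 15 genes called lower were read by probes with a median GC content of 38.3% (35 to 45%), and the 27 genes not called by probes with a median of 48.3%. Across the 43 genes Spearman's rho between GC content and change was 0.465, and across all 16685 tested gene names it was 0.472; genes share the same 4 arrays, so these are descriptions. Below 40% GC, 10 of 13 members were lower (76.9%), against 48.5% of all gene names in that range. From 40% to under 50%, 5 of 17 members were lower (29.4%), against 20.1%. At 50% or more, none of 13 members was lower, against 3% of all gene names. The first of these counts includes COX5A, COX11, ATP5G3 and ATP5A1, tested through the high-fertile pools alone. Among genes well above background on all 4 arrays, 6 of 8 members below 40% GC were lower, against 32.6% of gene names, and from 40% to under 50% 5 of 14 were, against 13.6%. After a lowess correction of each array on GC content, chosen after seeing the data, 10 members were lower and 2 higher, against 11.3% and 8.97% of all tested gene names, and 8 of the 15 lower calls were kept. The other 2 lower calls were ATP5G2 at -0.59 and COX7A1 at -0.63, and the higher calls were UQCRB at 0.82 and COX5B at 0.79. Those kept were UQCRH, COX5A, COX7A2, COX7B, COX8A, ATP5E, ATP5G1 and ATP5G3, whereas SDHC, COX7C, COX11, COX14, COX4NB, ATP5A1 and ATP5H were no longer called. Among these, COX7C was then at -0.32, ATP5H at -0.20, COX11 at -0.80 and ATP5A1 at -0.68.

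**Figure D2:**
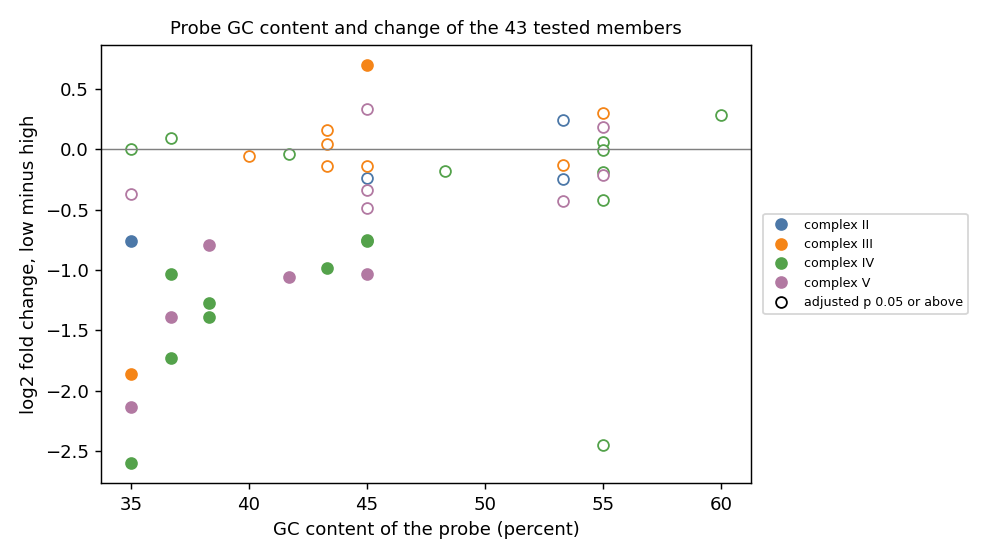
The GC content of the probe each gene is read from (percent) is set against the log2 change, low-fertile minus high-fertile, for the 43 tested members, filled where the adjusted p is under 0.05. The filled points lie between 35% and 45% GC, and none lies at 50% or above.

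The sequences of 4 probes of COX7A2, ATP5H and ATP5L are shown because each has a reading frame open over its length. Those of COX7A2 and ATP5H are further readings of genes whose other probes were also called, and those of ATP5L gave different calls. Capitals mark a stop codon that ends such a frame, found in the downstream ATP5L probe.
COX7A2: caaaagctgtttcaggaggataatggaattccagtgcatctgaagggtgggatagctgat
ATP5H: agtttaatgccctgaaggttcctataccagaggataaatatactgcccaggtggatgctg
ATP5L, upstream: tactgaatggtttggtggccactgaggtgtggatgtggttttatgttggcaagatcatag
ATP5L, downstream: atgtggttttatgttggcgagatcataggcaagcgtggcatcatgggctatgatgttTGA

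In the cattle assembly Btau_3.1 used by the array, the COX7A2 probe lies at chr9:14626619-14628575 on the minus strand and the ATP5H probe at chr19:58016818-58018300 on the plus strand. Each spans far more of the genome than the 60 bases of a probe, 1957 and 1483 bases, as a probe across a splice junction does. The ATP5L probes lie at chr15:27528042-27528101 and chr15:27528074-27528133, both on the plus strand.

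In complex II, SDHC, a membrane anchor of the enzyme, was lower. Its level was 0.93 and 1.16 in high-fertile sperm and 0.28 and 0.30 in the low-fertile pools. The classes did not overlap, low-fertile sperm being lower, with a change of -0.76 ± 0.155 (SE, n = 2 pools a group, limma adjusted p = 0.0205). That call came from a probe of 35% GC, and a second probe of the same gene, of 45% GC, changed by 0.22 and was not called. With the GC correction the SDHC change was 0.07, and with any 1 of the 4 pools left out it was -0.87 to -0.64 and not called. The flavoprotein SDHA changed by -0.25, the iron-sulphur subunit SDHB by -0.24 and the anchor SDHD by 0.24, and none was called.

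In complex III, 1 gene was called lower, 7 were not called and UQCRB differed between its probes. UQCRH, the hinge protein that sits beside cytochrome c1, was at 2.67 and 2.99 in high-fertile sperm and at 0.96 and 0.97 in the low-fertile pools. The groups did not overlap, and the gene fell by 1.86 (SE 0.168, n = 2 a group, limma adjusted p = 0.00275), a 3.64-fold difference. Its single probe lies at chr3:106693314-106693373 on the minus strand and has 35% GC; after the GC correction the change was -1.04 (limma adjusted p = 0.0161). The core proteins UQCRC1 and UQCRC2 changed by 0.30 and 0.16, the Rieske iron-sulphur protein UQCRFS1 by -0.06 and cytochrome c1 (CYC1) by -0.14. The small subunits UQCRQ, UQCR10 and UQCR11 changed by 0.04, -0.14 and -0.13, and none of these 7 genes was called.

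UQCRB, the ubiquinone-binding protein of complex III, was read in opposite directions by its probes. The brightest probe, which the files place nowhere in the genome, was at -0.18 and -0.31 in the high-fertile and 0.55 and 0.35 in the low-fertile pools, a rise of 0.70 ± 0.157 (SE, n = 2, limma adjusted p = 0.0276). The 2 probes placed at the gene on chromosome 14 read the reverse. The probe at chr14:66195074-66195133 was at 1.33 and 0.99 in high-fertile sperm and at -1.86 and -2.07 in the low-fertile pools, where it was not well above background. This gave a level at least 8.72-fold higher in high-fertile sperm (measured change -3.12, limma adjusted p = 0.00221). The probe at chr14:66195038-66195097, also below that mark in both low-fertile pools, gave at least 3.98-fold (measured change -1.99, limma adjusted p = 0.00371). Both placed probes were tested through their high-fertile level alone, so these p-values are descriptions of the fit. An "at least" value sets the dim group at the lowest signal marked well above background on its arrays, or at its own value where higher. It is no strict bound, and both UQCRB values equal the measured fold. On low-fertile pool 2 an ATP5L probe at 0.37 was still unmarked.

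Both placed UQCRB probes share 21 bases, shown in capitals within 30 bases of each, and the first 30 bases of the unplaced probe are given for comparison.
UQCRB, chr14:66195074-66195133: ctgTGGATACAGCTGTTCTCAAGTattttt
UQCRB, chr14:66195038-66195097: ctaaatctaTGGATACAGCTGTTCTCAAGT
UQCRB, unplaced: ctaaccctaaccccttcctggggctttatt

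Among enzyme subunits, complex IV had 5 of 14 tested genes lower and complex V 5 of 11, against 16.6% of all tested gene names. Among those well above background on all 4 arrays the counts were 4 of 10 and 3 of 8, against 9.32%. COX7A2, a small subunit found in most tissues, was at 3.26 and 3.51 in high-fertile sperm and at 1.53 and 1.78 in the low-fertile pools. The groups were well apart, and the gene fell by 1.73 (SE 0.174, n = 2 a group, limma adjusted p = 0.00331). All 3 of its probes were called lower, from -1.73 to -1.37, and the last of these values came from the junction-spanning probe printed above, of 45% GC.

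COX7B, another small structural subunit, was at 2.46 and 2.56 in high-fertile sperm and at 1.20 and 1.28 in the low-fertile pools. It fell by 1.27 without overlap (SE 0.144, n = 2, limma adjusted p = 0.00413), and its second probe, sharing 53 bases with the first, gave -1.28. Both are placed on chromosome 17 in the files. The GC correction brought the COX7A2 change to -1.02 and the COX7B change to -0.69, both still called.

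COX5A, which binds the core of the oxidase from the matrix side, was at -0.04 and -0.13 in high-fertile sperm and at -3.30 and -2.07 in the low-fertile pools. The low-fertile signals were not well above background, and by the rule above the gene was at least 4.33-fold higher in high-fertile sperm (measured change -2.60, limma adjusted p = 0.00849). Since COX5A, COX11 and ATP5G3 were tested through their high-fertile level alone, their p-values are descriptions of the fit. COX11, a copper chaperone for the assembly of the oxidase, was at -0.04 and -0.14 against -1.88 and -1.06. It too was below that mark in both low-fertile pools, and was at least 2.61-fold higher in high-fertile sperm (measured change -1.39, limma adjusted p = 0.0207).

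Among the other genes of complex IV, COX7C changed by -1.03 and COX8A by -0.98, and both were called lower. The 3 COX7C probes were all called, and the other 2 gave -1.65 and -1.67. The assembly factor COX14 and the gene COX4NB were lower by -0.76 and -0.75, each with an adjusted p just under the threshold (limma, 0.0472 and 0.0464). COX5B, COX6A1, COX6A2, COX4I2 and COX8B lay between -0.01 and 0.28 and were not called, nor were COX7A1 at -0.42 and COX19 at -0.04.

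Calls within isoform pairs of complex IV were as follows, without a test of the difference between isoforms. COX7A2 was lower, its heart and muscle counterpart COX7A1 was not called, and COX7A2L was not tested. COX8A was called and COX8B was not. COX6B2, the testis isoform of COX6B1, was at 4.13 and 4.09 in the high-fertile and 3.86 and 4.0 in the low-fertile pools, a change of -0.18 (limma adjusted p = 0.383), and COX6B1 changed by -0.19.

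COX4I1, the ubiquitous isoform of subunit IV, had 1 array far from the others. Its level was 5.34 in high-fertile pool 1, on a bright patch of the array, and 0.63, 0.40 and 0.67 in the other 3 pools. The change of -2.45 was not called (limma adjusted p = 0.249). It was -0.08 with spots on bright patches left out and -0.09 without high-fertile pool 1, and -4.81 and called lower without high-fertile pool 2.

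**Figure D3:**
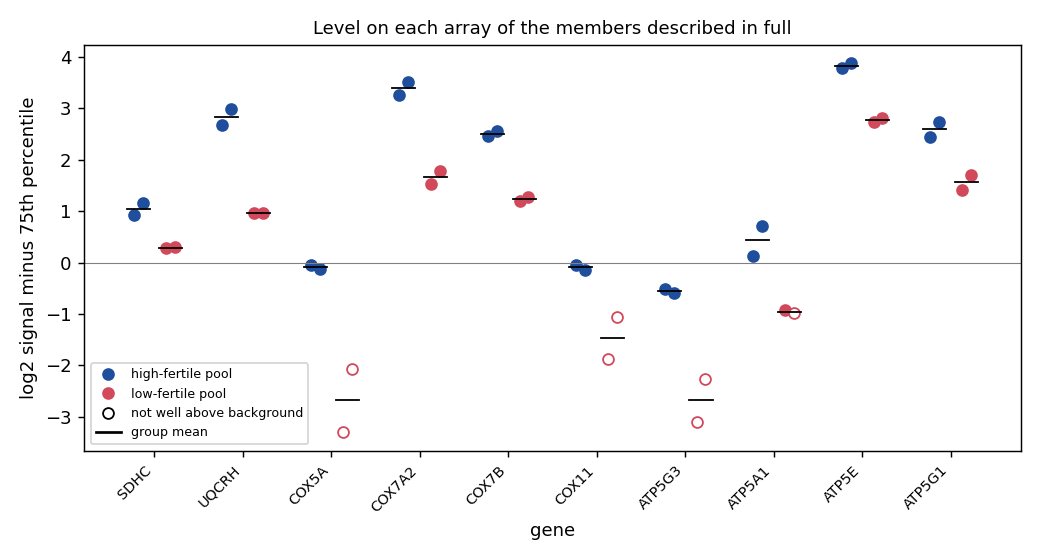
The log2 level on each of the 4 arrays is plotted for 10 members with the largest called decreases per complex, blue for high-fertile and red for low-fertile pools, with group means as lines and open points where the probe was not well above background. In each gene the red points lie below the blue points, and COX5A, COX11 and ATP5G3 have open points in both low-fertile pools.

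In complex V the lower genes came from both parts of the enzyme. ATP5G3, which encodes the c subunit of the membrane ring, was at -0.51 and -0.59 in high-fertile sperm and at -3.10 and -2.27 in the low-fertile pools. It was not well above background in the latter, and was at least 3.35-fold higher in high-fertile sperm (measured change -2.13, limma adjusted p = 0.0062). ATP5G1, a gene for the same c subunit, was at 2.44 and 2.74 against 1.42 and 1.70. It fell by 1.03 (SE 0.186, n = 2, limma adjusted p = 0.0144), and all 3 probes were called, from -1.03 to -0.66; without high-fertile pool 2 the change was -0.88 and was not called. ATP5G2, which encodes that subunit as well, changed by -0.43 and was not called (limma adjusted p = 0.0746), while another of its probes was called lower at -0.54 (limma adjusted p = 0.0429).

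In the catalytic part, the alpha subunit gene ATP5A1 was at 0.13 and 0.72 in high-fertile sperm and at -0.93 and -0.99 in the low-fertile pools. It fell by 1.39 (SE 0.226, n = 2, limma adjusted p = 0.0105), and its 3 tested probes were all called lower. All 3 were tested through the high-fertile pools alone, so their p-values are descriptions of the fit. Of these, 1 was not well above background in either low-fertile pool. With the GC correction the limma adjusted p of ATP5A1 was 0.088. The epsilon subunit gene ATP5E was at 3.79 and 3.88 against 2.73 and 2.82. It fell by 1.06 without overlap (SE 0.144, n = 2, limma adjusted p = 0.00643), and an overlapping probe gave -1.43. A further probe, at -1.01, was not called (limma adjusted p = 0.378). The gamma subunit gene ATP5C1 changed by -0.49 and the delta subunit gene ATP5D by -0.21, and neither was called.

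In the stalk and membrane part, ATP5H was lower by -0.79, and its 3 probes, including the junction-spanning one, were all called. ATP5I and ATP5J2 changed by 0.33 and 0.18 and were not called. ATP5L changed by -0.34 on its brightest probe, printed above as the upstream one, and was not called. Its other 3 probes were called lower, all tested through the high-fertile pools alone, whereas the brightest was well above background on all 4 arrays. The downstream one gave -0.60 and another -1.86, and the last was not well above background in either low-fertile pool and was at least 3.73-fold higher in high-fertile sperm (measured change -1.90). ATP5SL changed by -0.37 and was not called.

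With 1 pool left out, its group has a single array, which is assumed to vary like the other group, and fewer degrees of freedom remain. COX14 was then called in no case (changes of -0.98 to -0.54), COX4NB only without low-fertile pool 2 (-0.94 to -0.56) and ATP5H only without low-fertile pool 1 (-0.86 to -0.72). COX8A and COX11 were not called without either high-fertile pool, at -0.98 and -0.97 for COX8A and -1.34 and -1.43 for COX11. The UQCRB rise was called only without low-fertile pool 2 (0.60 to 0.80), and it was not called under spike-in normalization. Without low-fertile pool 2, the array with the fewest probes above background, 13 members were lower and 1 was higher.

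The size of a change in dim genes depended on the background correction. With normexp and an offset of 50, the changes were -0.49 for COX5A, -0.60 for ATP5G3, -0.36 for COX11 and -0.45 for ATP5A1, all still called. The "at least" values therefore describe only the scale used above and are no strict bounds. For UQCRH the change was -1.24, for COX7A2 -1.30 and for COX7B -1.02. With each gene taken as the median of all its probes, 11 members were lower, and 10 of the 15 calls were kept. COX5A was then at -1.18, ATP5G3 at -0.84, ATP5A1 at -0.76, SDHC at -0.08 and COX14 at -0.76, and these 5 were no longer called (limma adjusted p = 0.103, 0.0702, 0.195, 0.767 and 0.0744).

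Not tested, because no probe was well above background in both pools of a group, were 12 genes. They were CYCS, the oxidase genes COX10, COX15, COX16, COX18, COX7A2L and COX7B2, and the ATP synthase genes ATP5B, ATP5F1, ATP5J, ATP5O and ATP5S. For ATP5B, the catalytic beta subunit, all 5 probes failed this filter, and the brightest was at -1.58, -1.21, -1.77 and -2.44. No fold change is given for these genes.

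Agreement among probes could be examined in 25 genes with 2 or more tested probes. In 8 of them every tested probe was called lower, and in 8 none was called. In 6 some probes were lower and others not called, and in 3 (UQCRB, COX6B2 and ATP5D) a probe was called higher. The median spread between the highest and lowest change within a gene was 0.43, and the largest was 3.82 in UQCRB. For ATP5D the second probe rose by 0.79 (limma adjusted p = 0.0134), and for COX6B2 by 0.55 (limma adjusted p = 0.0491). Of 19 pairs of tested probes sharing at least 20 bases, 12 differed by less than 0.3, with a median difference of 0.17.

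**Figure D4:**
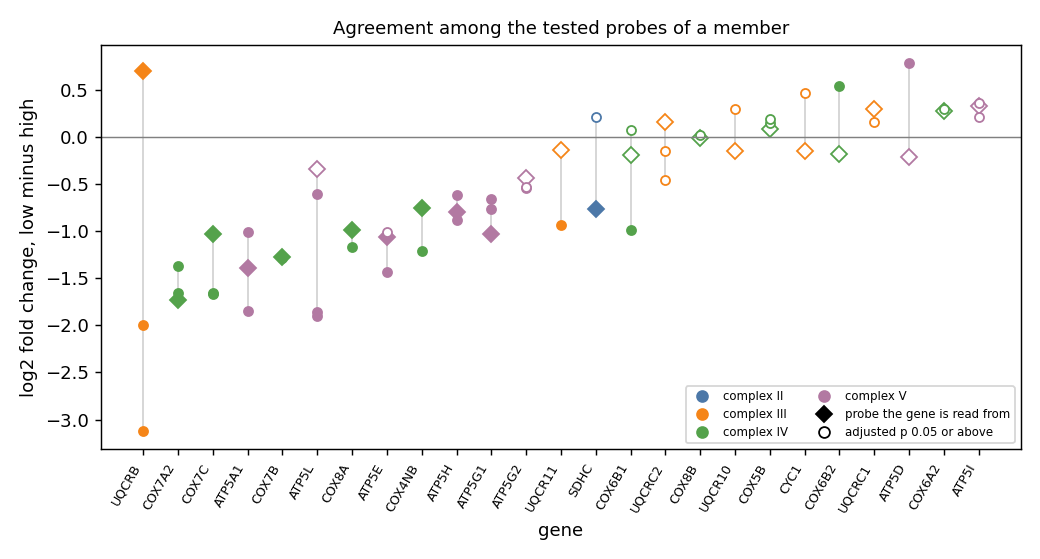
Each point is the log2 change, low-fertile minus high-fertile, of 1 tested probe in the 25 genes with 2 or more, with diamonds for the probe the gene is read from and filled symbols for adjusted p under 0.05. The median spread within a gene is 0.43, whereas UQCRB runs from -3.12 to 0.70 and ATP5L from -1.90 to -0.34.

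A few overlapping pairs differed far more than this. The 2 UQCR11 probes share 35 bases, yet one was at 1.61, 1.64, 1.39 and 1.61 (change -0.13) and the other at 1.69, 1.56, 0.61 and 0.78 (change -0.93, limma adjusted p = 0.0107). The first has 53.3% GC and the second 40%. Capitals mark the bases that the other probe lacks.
UQCR11, change -0.13: ctctgAAACCTGCCCGCCTGCACGTGCTCA
UQCR11, change -0.93: TTTCCTCTTTTGGTGGAAATAACTTttgtg

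The 2 overlapping COX6B1 probes share 54 of 60 bases. One, placed on chromosome 18 and of 45% GC, changed by 0.08. The other, placed on chromosome 5 and of 38.3% GC, ends in a run of A and changed by -0.98 (limma adjusted p = 0.0196). It was tested through the high-fertile pools alone, so this p-value is a description of the fit.
COX6B1, change 0.08: TCCCCAccctgggatcctgactcatggtat
COX6B1, change -0.98: taataaatgctcgttggaaacgtgAAAAAA

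The neighbouring steps of the pathway were described in the same way. Of 24 tested genes listed as complex I subunits 6 were lower, NDUFA4 among them, and none was higher, with a median of -0.39. Among the 13 well above background on all 4 arrays 2 were lower, with a median of -0.18. NDUFB1, tested through the high-fertile pools alone, fell by 2.00, and NDUFA1, well above background on all 4 arrays, by 1.30. NDUFA4, now placed with complex IV, was not well above background in either low-fertile pool and was at least 3.12-fold higher in high-fertile sperm (measured change -1.64). Of 10 tested genes listed as assembly and accessory factors outside the name rule, 3 were lower and HCCS, the haem lyase for cytochromes c, was higher by 0.70. USMG5 changed by -1.58 and SDHAF2 by -0.86. CYB5A was not well above background in either low-fertile pool and was at least 2.37-fold higher in high-fertile sperm (measured change -1.25). Of 8 tested regulators of mitochondrial biogenesis 4 were lower, and those with the largest changes were TFB1M, at -1.42, YY1, at -1.13, and TFB2M, at -0.97. The coactivator PPARGC1A was the other, at -0.88. Of 10 tested enzymes of the citric acid cycle 2 were lower, OGDH by -1.21 and SUCLG1 by -0.89, and among the 5 well above background on all 4 arrays none was lower. In that class 1 of 4 genes listed as assembly and accessory factors and 3 of 5 biogenesis regulators were lower. Like NDUFB1, the genes SDHAF2, TFB2M, OGDH and SUCLG1 were tested through the high-fertile pools alone. Over all tested gene names 16.6% were lower and 9.53% higher, and over those well above background on all 4 arrays 9.32% and 13.2%.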

How the data were processed

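Each of the 4 pools was hybridised to 1 Agilent bovine array on a single slide in 1 scan, which leaves neither slide nor scan to use as a block. The authors extracted the images with Agilent Feature Extraction 11.5.1.1, and the deposited scanner files hold linear background-subtracted intensity values. The value table deposited by the authors holds log2 values after a 75th percentile shift in GeneSpring GX. Here the log2 processed signal minus the 75th percentile of each array was recomputed, outlier spots were left out and spots of a probe were averaged. The 21033 probes marked well above background in both pools of a class entered limma 3.58.1 (R 4.3.3), and other steps used Python 3.11.15 with pandas 2.3.3. No tested probe was saturated. An exact permutation test of 2 against 2 pools cannot go below p = 0.333. On simulated data with 200 changed probes among 21033, each by 2 log2 units, 87% were recovered and 4.5% of calls were false. The simulated errors were independent between probes and unrelated to GC content, and far fewer probes changed than were called in the data. The 4.5% is therefore not a rate of false calls for the results above.

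Every member is accounted for by name; full values are given for up to 4 called members per complex with the largest change and pools apart, and for any member called higher. The members and lists were chosen with earlier results of these data known. All 55 members matched a current RefSeq symbol (18 renamed). Coordinates are those of Btau_3.1 in the files. Promoter sequences were not used here. The sequence of 1 probe is not reported here. The pool numbers did not pair the pools (r = 0.00548 between the differences of pools 2 and 1 in the 2 groups). The number of arrays limits the precision.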

Additional observations from a re-analysis of the deposited data

How the results depend on the processing

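The 15 lower and 1 higher members were recounted under each alternative; the GC correction was chosen after seeing the data. Fits with the replicate block gave 13 lower and 1 higher. With spike-in normalization, 23 were lower and 0 higher, and the medians of complexes II to V were -0.62, -0.43, -0.96 and -0.83, where all probes shifted by -0.38. No filter on dim probes gave 0 lower and 0 higher (15 and 1 at an unadjusted p under 0.05) and a complex IV median of -0.26. The methods' t-test gave 0 lower and 0 higher after adjustment (13 and 2 unadjusted in the 43 members), and 8 lower and 0 higher at its own thresholds. Normexp correction gave medians of -0.10, -0.24 and -0.29 for complexes II, IV and V. Taking each gene as its probes' median gave 11 lower, 0 higher and medians of 0.03, -0.31, -0.18 and -0.60. The filter on all 4 arrays gave -0.37 for complex V, and leaving out bright patches gave 0.05 for complex III. The GC correction gave 2 higher and medians of -0.03, 0.10 and -0.39 for complexes II, III and V. Leaving out each pool in turn gave 9 to 13 lower, 0 to 1 higher, and medians from -0.47 to -0.02 (II), -0.07 to 0.08 (III), -0.73 to -0.26 (IV) and -0.61 to -0.41 (V). The lowest count, 9, came from leaving out either high-fertile pool, and 0 were higher then and without low-fertile pool 1.

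Changes of sign were these. With the GC correction ATP5J2 was -0.03, SDHC 0.07, COX19 0.31, UQCR10 0.10, ATP5SL 0.45, COX4I2 -0.15 and UQCRFS1 0.40. With each gene as its probes' median COX6B2 was 0.18, COX6B1 0.08, COX8B 0.02, UQCRQ -0.31, ATP5D 0.29, COX19 1.03, UQCRC2 -0.29, CYC1 0.28, UQCR10 0.08, UQCRB -1.83, SDHA 0.15, ATP5SL 0.07, ATP5C1 0.43 and COX7A1 0.21. With spike-in normalization ATP5I was -0.04, UQCRQ -0.33, SDHD -0.14, ATP5J2 -0.20, COX5B -0.28, UQCRC1 -0.07, UQCRC2 -0.21, COX6A2 -0.09 and COX4I2 -0.31. COX8B was 0.02 with the percentile over detected probes and 0.01 with quantile normalization, UQCRQ -0.01 with cyclic loess, and CYC1 0.48 without bright patches. Leaving out each pool in turn, the changes ran from -0.32 to 0.25 for COX19, -0.98 to 0.24 for ATP5SL, -0.15 to 0.27 for COX4I2, -0.36 to 0.23 for UQCRFS1 and -0.07 to 0.04 for COX8B. Except for the construction of the alternatives, the cause was not tested. With the positive and significant mark in place of the well-above-background mark, 49 members were detected in place of 43.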
